A study of Homo sapiens with 12 samples.

Results

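The genes of 4 families of splicing factors were examined in human fibroblasts: the SR proteins (SRSF), the heterogeneous nuclear ribonucleoproteins (HNRNP), the proteins of the small nuclear ribonucleoproteins (SNRP) and the subunits of the SF3A and SF3B complexes (SF3). Members were the protein-coding genes of the count table whose symbol begins with one of these prefixes and goes on with digits or letters of the family. They numbered 59 of 60671 genes, with 26 HNRNP, 12 SRSF, 12 SNRP and 9 SF3 genes. All groups derive from BJ-5ta, human fibroblasts that carry hTERT, the catalytic subunit of telomerase, and divide without limit, and all were grown in RPMI medium. Wild-type cells were compared with cells of the ΔLEO1 clone, made by CRISPR/Cas9 with guides to exons 1 and 2 of LEO1, a subunit of the RNA polymerase II-associated complex PAF1C. Cells of either genotype were kept in 10% serum or, to bring them to quiescence, in 0.1% serum for 10 days. Each of the 4 groups had 3 poly(A) RNA libraries. All ΔLEO1 libraries came from 1 clone, so an effect of the deletion and a property of the clone cannot be told apart. The 12 libraries carry running numbers, 1 to 3 for wild type and 4 to 6 for ΔLEO1 in 10% serum, 7 to 9 for wild type and 10 to 12 for ΔLEO1 in 0.1% serum.

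Splicing removes introns from nascent transcripts in the spliceosome, which is built from small nuclear ribonucleoproteins. The SNRPB, SNRPD, SNRPE, SNRPF and SNRPG proteins form the Sm ring around most spliceosomal RNAs, whereas SNRPA and SNRPC belong to the U1 particle and SNRPA1 and SNRPB2 to the U2 particle. SF3A and SF3B are the U2 complexes that hold the branch site. SR proteins bind exons and promote their inclusion, and hnRNP proteins coat nascent RNA and often oppose inclusion of exons. Many SR and hnRNP genes limit their own expression by splicing in exons that lead to decay of the transcript, a feature that counts per gene do not show.

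The start regions of the tested members are described first. RefSeq gave a window of 300 bases (250 before and 50 after the annotated start, GRCh38.p14) for 48 of the 53 members that could be tested. Both strands were searched for 7 motifs. The ETS motif CCGGAAG was present in 18 of the 48 windows (37.5%) against 10.3% of all 35116 windows, the GC box GGGCGG in 31 (64.6% against 45%), the CCAAT box CCAAT in 20 (41.7% against 34.6%) and the E-box CACGTG in 8 (16.7% against 7.26%). The TATA box TATAAA was found in 6 (12.5% against 11.5%), and the CRE TGACGTCA and the NRF1 motif in 0 of 48, against 1.85% and 1.24% of all windows. The windows of the members had a median GC content of 62.2%, against 58.7% over all windows. The 48 windows were 1 per tested member, whereas the 35116 were limited neither to tested genes nor to 1 window per gene. Whether these differences are particular to splicing factor genes among expressed genes was not tested. Of the SNRP genes, the ETS motif lay in the windows of SNRPA1, SNRPB, SNRPB2, SNRPC, SNRPD2, SNRPE and SNRPG. Among these, SNRPA1, SNRPD2, SNRPE and SNRPG were not called between genotypes, and the windows of the called SNRPA and SNRPF lacked the motif. Such a match describes the letters of the window only. The windows of 4 members called between genotypes in 10% serum are given 5′ to 3′ in the direction of the gene, with the motif matches in capitals. SRSF5, SNRPB and SNRPB2 are shown for the ETS motif, which stands near the start in each, and HNRNPAB for its TATA box, 2 CCAAT boxes and 3 GC boxes, which overlap nowhere. CTTCCGG is the ETS motif and CCGCCC the GC box read on the other strand.
SRSF5, chr14:69766892-69767191, plus strand: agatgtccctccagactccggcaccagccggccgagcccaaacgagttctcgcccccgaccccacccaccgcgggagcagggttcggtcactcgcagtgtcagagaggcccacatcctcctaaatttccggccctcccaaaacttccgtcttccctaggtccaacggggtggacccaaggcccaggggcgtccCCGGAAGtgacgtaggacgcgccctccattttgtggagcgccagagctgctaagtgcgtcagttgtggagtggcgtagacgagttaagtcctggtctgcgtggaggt
SNRPB, chr20:2470740-2471039, minus strand: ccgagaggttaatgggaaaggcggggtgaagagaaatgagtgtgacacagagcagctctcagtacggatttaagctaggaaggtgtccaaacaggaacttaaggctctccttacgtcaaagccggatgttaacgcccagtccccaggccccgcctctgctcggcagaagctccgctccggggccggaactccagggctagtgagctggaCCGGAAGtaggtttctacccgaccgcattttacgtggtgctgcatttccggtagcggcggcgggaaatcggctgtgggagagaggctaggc
SNRPB2, chr20:16729776-16730075, plus strand: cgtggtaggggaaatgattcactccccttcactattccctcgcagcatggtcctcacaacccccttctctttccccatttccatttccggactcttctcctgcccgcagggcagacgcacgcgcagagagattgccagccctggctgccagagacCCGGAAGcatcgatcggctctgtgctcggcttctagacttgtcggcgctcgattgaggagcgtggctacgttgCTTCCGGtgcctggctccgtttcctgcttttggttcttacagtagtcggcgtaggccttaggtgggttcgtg
HNRNPAB, chr5:178204283-178204582, plus strand: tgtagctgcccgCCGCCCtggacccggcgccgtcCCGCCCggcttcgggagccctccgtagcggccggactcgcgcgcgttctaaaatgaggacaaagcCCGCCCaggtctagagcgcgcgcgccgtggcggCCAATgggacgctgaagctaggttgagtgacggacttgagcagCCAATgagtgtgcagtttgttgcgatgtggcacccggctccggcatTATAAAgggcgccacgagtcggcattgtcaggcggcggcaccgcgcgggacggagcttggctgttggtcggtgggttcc

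The libraries held 26240632 to 45315560 counts on genes and 0.625% to 3.24% of their counts on the added ERCC transcripts, and the members took 0.653% to 0.940% of the gene counts. LEO1 had 682 to 1001 counts in the wild-type libraries and 23 to 55 in the ΔLEO1 libraries. Relative to the other genes its log2 fold change was −4.38 in 10% serum and −4.51 in 0.1% serum. All 6 fibroblast markers examined were expressed, with COL1A1 at 13310 to 34111 CPM, a count divided by the adjusted gene total of its library and brought to a common size. Of the markers of other cell types examined, EPCAM, CD3E, CDH5 and PECAM1 had at most 11 counts in any library, KRT19 at most 17 and CDH1 at most 63. CD14 was at 0.479 to 1.46 CPM and VWF at 0.280 to 0.954 CPM. KRT18 was at 93.1 to 1152 CPM and KRT8 at 23.4 to 76.6 CPM. Relative to the other genes KRT18 was higher in ΔLEO1 cells, by 1.57 and 2.39 on the log2 scale in 10% and 0.1% serum, and KRT8 fell by 1.23 and 1.10. PTPRC was at 0.211 to 0.613 CPM in wild-type and 1.42 to 7.25 CPM in ΔLEO1 libraries. The part of these markers in the results was not tested. In each group the highest-numbered library (3, 6, 9 and 12) stood apart from the others. The chi-square per gene was 3.04 to 12.2 between the other two and 66.8 to 145 with it. The summed CPM of 12 proliferation genes was 965 and 975 in libraries 1 and 2 but 297 in library 3, and the ERCC share was 1.88% and 3.24% in libraries 10 and 11 but 1.09% in library 12. The sources used here do not say that the 3 libraries come from different cultures, so p-values measure the spread between these libraries, which may be technical.

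Of the 59 members, 53 had over 1 CPM in 3 or more libraries and were tested: 22 HNRNP, 11 SRSF, 11 SNRP and 9 SF3 genes. SRSF12 had at most 0.0864 CPM, and HNRNPCL1, HNRNPCL2, HNRNPCL3 and HNRNPCL4 had 8, 1, 0 and 3 counts over all libraries. SNRPN, which shares exon sequence with SNURF and SNHG14, was listed at 0 in every library. Levels per kilobase of exon were highest for HNRNPK at 130 CPM per kb and HNRNPA1 at 116, both hnRNPs that shuttle between nucleus and cytoplasm, followed by HNRNPAB at 84.0 and SNRPB at 79.0. SF3B5 led the SF3 genes at 68.1 CPM per kb and SRSF2, the factor also named SC35, led the SRSF genes at 42.4. These ranks depend on the length used, that of all annotated exons of a gene joined, 693 bases for SF3B5 and 9795 for SF3B2. Before division by length, SF3B5 was the lowest SF3 gene at a mean of 47.2 CPM, against 273 for SF3B2. Likewise SRSF2 was at 128 CPM, below SRSF3 at 251. SNRPA1, at 5.05 CPM per kb, was the lowest of the tested SNRP genes. HNRNPA1L2 and HNRNPA1L3 came last of the tested members at 2.04 and 1.53 CPM per kb, and 53.6% and 48.9% of their stretches of 58 bases also occur in other genes, chiefly HNRNPA1 and its pseudogenes, so their counts are uncertain.

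Across the 12 libraries the members differed in how steady they were. HNRNPK ranged from 606 to 738 CPM, a ratio of 1.22, and HNRNPA3 from 179 to 222 CPM, a ratio of 1.24. At the other end, leaving aside HNRNPA1L2 and HNRNPA1L3 with their uncertain counts (ratios of 2.88 and 2.14), SRSF5 ranged from 91.8 to 224 CPM, a ratio of 2.44, and HNRNPAB from 118 to 282 CPM, a ratio of 2.39. SRSF7 spanned a ratio of 2.13 and SNRPB of 1.90. In the 3 wild-type libraries in 10% serum the median member was at −0.14, −0.14 and −0.19 from its own mean over the libraries on the log2 scale, lower than in any other library. The highest medians, 0.20 and 0.18, belonged to libraries 10 and 11.

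**Figure D1:**
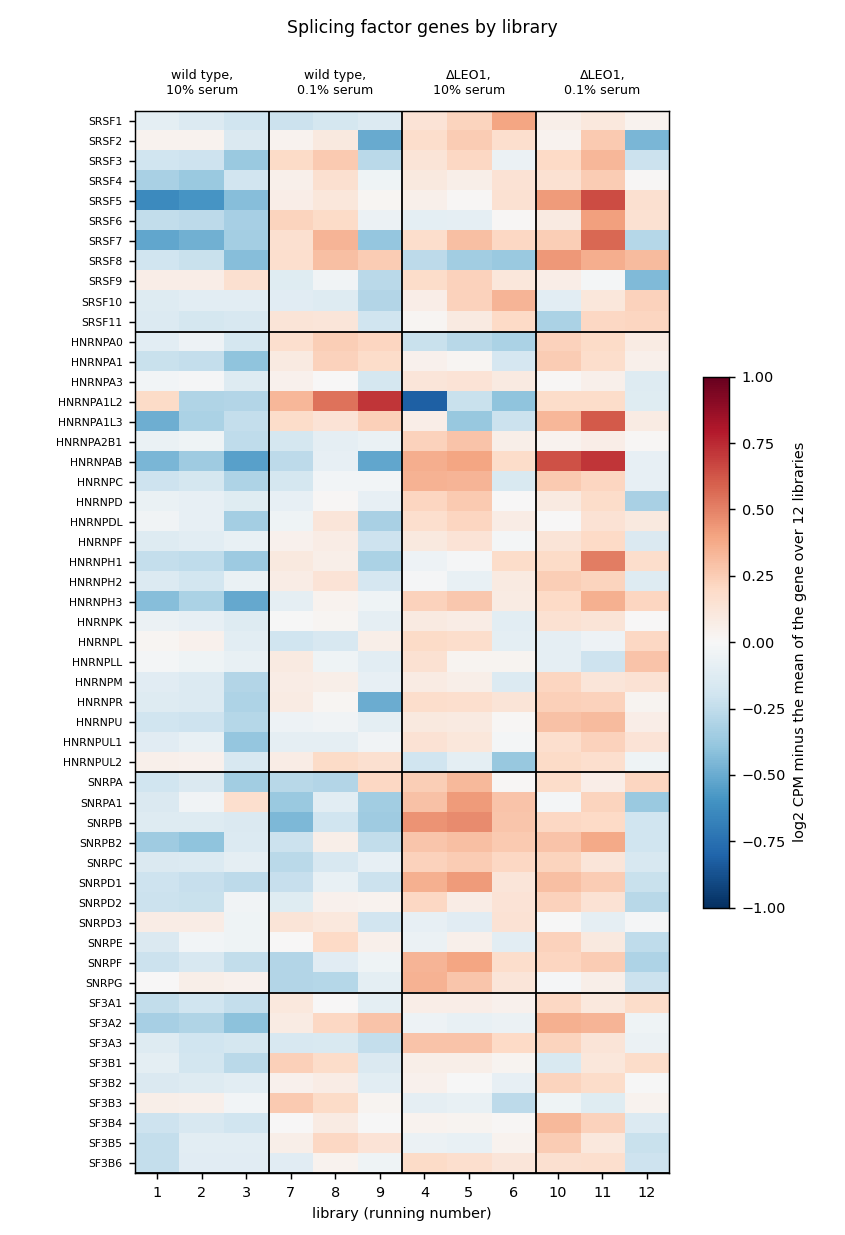
Level of the 53 tested splicing factor genes in the 12 libraries, as log2 CPM minus the mean of each gene over the libraries. Columns are libraries in their groups and rows are genes by family. SRSF5 is lower in the 3 wild-type libraries in 10% serum, at up to 106 CPM, than in every other library, SRSF7 and HNRNPAB also span a wide range but library 9 lies within their range in those 3 libraries, and libraries 9 and 12 are paler or bluer than the other libraries of their groups for many genes.

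Expression was measured on 2 scales. On the ERCC scale the count of a gene was divided by the ERCC total of the library, so that it follows the amount of its RNA per added spike-in. In bulk RNA, fewer cells of a type and less RNA per cell cannot be told apart. On the gene scale the count was divided by the total of the gene counts, so that it follows the level of a gene relative to the other genes. Log2 fold changes come from edgeR's fit to all 12 libraries. Their standard errors (SE) were computed from the fitted values and the spread estimated over all 12. Adjusted p come from edgeR's likelihood ratio test with Benjamini-Hochberg adjustment over 13236 genes, with calls at an adjusted p under 0.05. A comparison of serum levels and one of genotypes share the libraries of 1 group, so their values are given side by side only.

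The first question was how low serum changes these genes. Per ERCC spike-in, all 53 members had lower estimates in 0.1% than in 10% serum in both genotypes. So did most genes, 12569 of all 13236 tested in wild-type and 12546 in ΔLEO1 cells. In wild-type cells 5 of 53 (9.43%) were called lower and 0 higher, against 36.1% of all tested genes called lower and 0.944% called higher. The median log2 fold change was −0.83 for the members and −0.97 for all genes. In ΔLEO1 cells 33 of 53 (62.3%) were called lower and 0 higher, against 47.2% and 0.975% of all genes, with medians of −1.07 and −1.05. Groups did not overlap for 12 members in wild-type cells and for 35 in ΔLEO1 cells, against 54.6% and 51.8% of all genes. The 5 members called in wild-type cells, SNRPG, SNRPA1, SRSF9, SNRPB and HNRNPL, were all among the 33. The SE of a member on this scale was 0.439 to 0.517 in ΔLEO1 cells, with a median of 0.449. At this precision SRSF2 in wild-type cells, at −1.02, was not called (adjusted p 0.0577).

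SNRPB encodes the Sm proteins B and B′. Its ERCC-scaled level (the CPM computed with the effective ERCC total as the library size) was 11160, 9259 and 5995 in wild-type cells in 10% serum and 3494, 5403 and 2940 in low serum. The ΔLEO1 libraries went from 20882, 15825 and 12188 in 10% serum to 5885, 3448 and 8319 in 0.1% serum. Neither genotype had overlapping groups, and SNRPB fell by 1.16 ± 0.45 (SE) in wild-type and by 1.47 ± 0.45 in ΔLEO1 cells, with adjusted p of 0.037 and 0.0114. Of its 58-base stretches, 15% also occur in an overlapping annotated gene. SNRPA1, the U2 A′ protein, fell by 1.19 in wild-type and by 1.54 in ΔLEO1 cells (adjusted p 0.0395 and 0.0113). SRSF9, an SR protein with a short arginine-serine domain, fell by 1.18 and by 1.44 (adjusted p 0.035 and 0.013), and SNRPG of the Sm ring by 1.24 and by 1.43 (adjusted p 0.0328 and 0.0164). In library 12 the scaled counts were the highest of the ΔLEO1 libraries in 0.1% serum for each of these genes.

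By family, all 11 SNRP genes were called lower in ΔLEO1 cells per spike-in, with log2 fold changes from −1.54 to −1.06 and a median of −1.28. The count was 8 of 11 SRSF genes, 11 of 22 HNRNP genes and 3 of 9 SF3 genes, against 47.2% of all genes. The SRSF genes ranged from −1.44 for SRSF9 to −0.38 for SRSF8. HNRNPK, the most abundant member, was at −1.02 ± 0.44 with an adjusted p of 0.0462, and SRSF2 at −1.42 ± 0.45 with 0.0135. In wild-type cells 3 SNRP, 1 SRSF, 1 HNRNP and 0 SF3 genes were called, against 36.1% of all genes.

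Single libraries decided these counts. In wild-type cells 0 members were called without library 1, 2, 7 or 9 and 3 without library 5, whereas 26, 29 and 35 were called without libraries 3, 11 and 12. In ΔLEO1 cells 0 were called without library 4 or 10, 1 without library 11, 11 without library 5 and 21 without library 7, but 52 without library 12. The share of all genes called lower moved with these counts, from 8.67% without library 7 to 65% without library 12 in wild-type cells and from 4.82% without library 10 to 88.3% without library 12 in ΔLEO1 cells. Without libraries 3, 6, 9 and 12 together, the calls were 35 lower in wild-type and 53 lower in ΔLEO1 cells, against 71.8% and 92.5% of all genes.

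**Figure D2:**
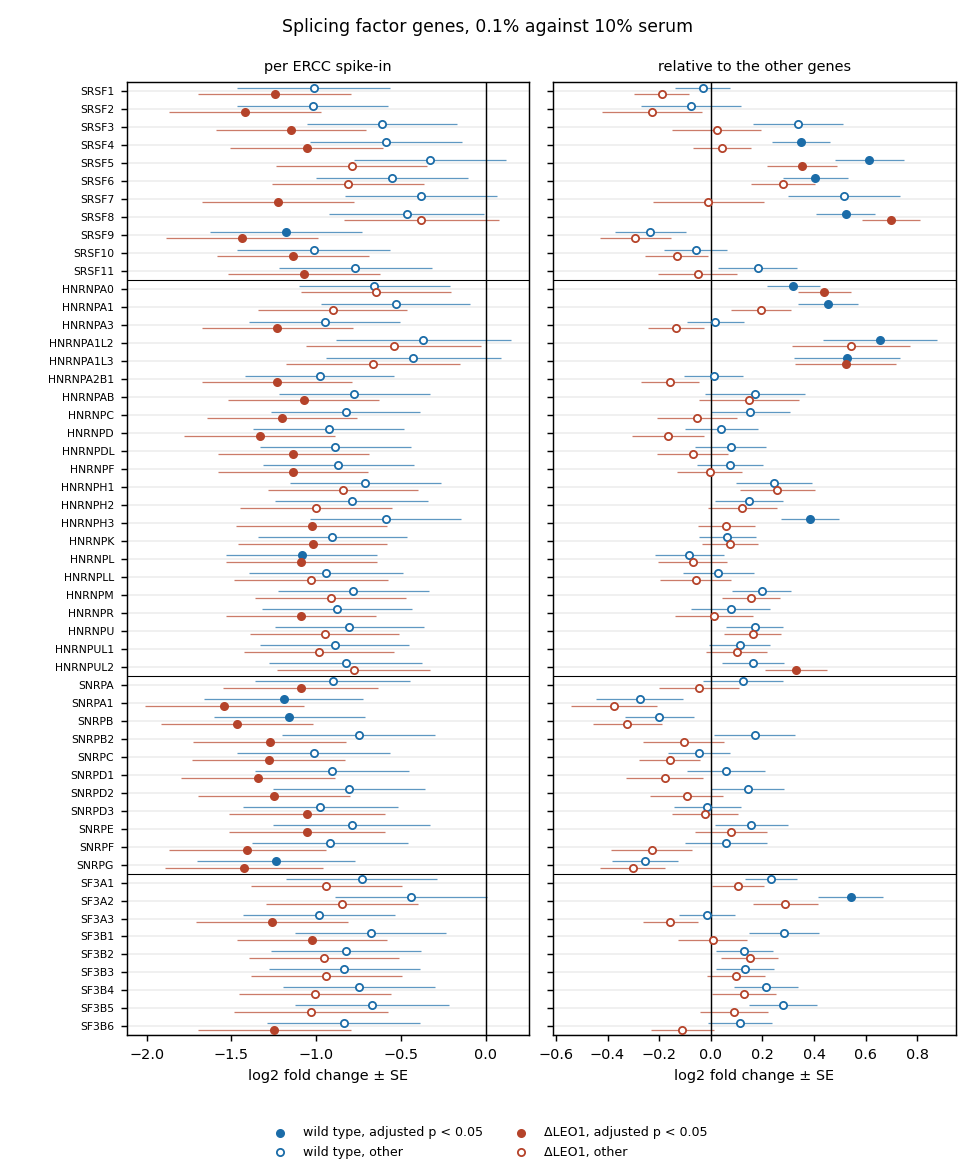
Log2 fold change of each tested member, 0.1% against 10% serum, with its SE, in wild-type (blue) and ΔLEO1 cells (red). Filled points passed an adjusted p of 0.05. Per ERCC spike-in (left) all points lie below 0. Relative to the other genes (right) the filled points lie above 0, led by SRSF8, HNRNPA1L2 and SRSF5.

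Relative to the other genes the picture had another direction. In wild-type cells 10 of 53 members (18.9%) were called higher in 0.1% serum and 0 lower, against 16% of all tested genes called higher and 16.6% called lower, and the median member was at 0.14 against 0.00 for all genes. The 10 were the SR genes SRSF4, SRSF5, SRSF6 and SRSF8, the hnRNP genes HNRNPA0, HNRNPA1, HNRNPH3, HNRNPA1L2 and HNRNPA1L3, and SF3A2. SNRP genes were absent from the calls, with log2 fold changes from −0.28 for SNRPA1 to 0.17 for SNRPB2. Per spike-in the estimates of the same 10 genes were all below 0, from −0.66 for HNRNPA0 to −0.33 for SRSF5.

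SRSF5, an SR protein first described as an insulin-induced early gene of liver cells, was at 91.8, 95.1 and 106 CPM in wild-type cells in 10% serum and at 150, 154 and 145 CPM in 0.1% serum. The groups did not overlap, as was the case for 48.4% of all genes, and the log2 fold change was 0.61 ± 0.13 (adjusted p 5.65e-05). SF3A2, a subunit of SF3A, went from 71.6, 73.1 and 67.8 CPM to 95.4, 104 and 110 CPM, a difference of 0.54 ± 0.13 (adjusted p 0.00017). SRSF8, a retrogene relative of SRSF2, went from 31.3, 30.8 and 26.8 CPM to 40.3, 44.4 and 43.0 CPM, 0.52 ± 0.11 (adjusted p 4.31e-05). In all 3 genes the lowest library in 0.1% serum stood above the highest in 10% serum. HNRNPA1, the most counted member of its subfamily, rose by 0.45 ± 0.12 (adjusted p 0.000787), from 443 to 500 CPM in 10% serum to 622 to 685 CPM in 0.1% serum, and 21.8% of its 58-base stretches occur in other genes. SRSF6 rose by 0.41, HNRNPH3 by 0.38, SRSF4 by 0.35 and HNRNPA0 by 0.32, with adjusted p from 0.00311 to 0.00855. The estimates of the copies HNRNPA1L2 and HNRNPA1L3 were 0.66 and 0.53.

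In ΔLEO1 cells 5 members (9.43%) were called higher relative to the other genes and 0 lower, against 16.5% and 12.9% of all tested genes. SRSF8 rose most, from 29.9, 28.3 and 27.7 CPM to 48.5, 46.3 and 44.7 CPM, or by 0.70 ± 0.11 (adjusted p 1.65e-08). HNRNPA0, an intronless hnRNP gene, rose from 198, 191 and 186 CPM to 271, 264 and 245 CPM, by 0.44 ± 0.10 (adjusted p 0.000207), with no overlap. SRSF5 was at 148, 144 and 159 CPM in 10% serum and at 192, 224 and 160 CPM in 0.1% serum, a log2 fold change of 0.35 ± 0.13 (adjusted p 0.0319), where library 12 lay next to library 6. HNRNPA1L3 at 0.52 and HNRNPUL2 at 0.33 were the others, and 43.1% of the 58-base stretches of HNRNPUL2 are shared with a read-through gene. The calls of SRSF8, HNRNPA0, SRSF5 and HNRNPA1L3 were common to both genotypes. They made up 40% of the wild-type calls and 80% of the ΔLEO1 calls. The 2 comparisons share no library, but their estimate of the spread rests on all 12 libraries. The overlap of calls over all tested genes was not computed. SNRP genes had 10 of 11 estimates below 0 in ΔLEO1 cells, down to −0.37 for SNRPA1, and 0 called.

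Of the wild-type calls on the gene scale, SRSF5, SF3A2, SRSF8, HNRNPA1, SRSF6 and HNRNPH3 passed in each of the 12 fits that left out 1 library. HNRNPA0 had an adjusted p of 0.0578 without library 8. SRSF4 had 0.0503, 0.0675 and 0.0764 without libraries 1, 2 and 8. HNRNPA1L2 lost its call without library 2, 3, 8 or 9 (0.0501 to 0.0887), and HNRNPA1L3 without 1, 2, 7, 8 or 9 (0.0743 to 0.142). The number called was 6 without library 8. In ΔLEO1 cells SRSF8 and HNRNPA0 passed in all 12 fits, while SRSF5 lost its call without library 4, 5, 10 or 11 (0.0857 to 0.232), HNRNPUL2 without 4, 6, 10 or 11 (0.08 to 0.138) and HNRNPA1L3 without 5, 6, 10 or 11 (0.0749 to 0.2). The number called was 2 without library 10 or 11, 3 without library 4 or 6 and 9 without library 12. Shares of all genes called are not given for these single removals in either genotype, so the counts alone do not set the members apart. Without the 4 highest-numbered libraries together 28 members were called higher and 3 lower in wild-type cells, and 16 higher and 7 lower in ΔLEO1 cells. Of all genes 27.8% were then higher and 30.9% lower in wild-type cells, and 29% and 28.3% in ΔLEO1 cells.

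The second question was how ΔLEO1 cells differ from wild-type cells at the same serum level. Relative to the other genes, 19 of 53 members (35.8%) were called higher in ΔLEO1 cells in 10% serum and 0 lower, against 17.7% of all tested genes called higher and 21.8% called lower. The median member was at 0.26 and the median gene at 0.00, and 47 of 53 members had positive estimates, against 6657 of 13236 genes. The calls fell on 6 of 11 SNRP genes, 5 of 11 SRSF genes, 3 of 9 SF3 genes and 5 of 22 HNRNP genes. Groups did not overlap for 42 of 53 members (79.2%), against 59.3% of all genes. In 0.1% serum 6 members (11.3%) were called higher and 0 lower, against 15.4% and 17.6% of all genes, with a median of 0.13. These 6, HNRNPAB, SNRPB, SRSF5, HNRNPU, HNRNPH3 and SF3A3, were 31.6% of the 19 and all had been called in 10% serum. The comparisons share no library, but they share the clone and the estimate of the spread. For all tested genes the overlap of these calls was not computed.

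HNRNPAB, an hnRNP that also binds single-stranded DNA, lies at chr5:178204507-178211163 on the plus strand and overlaps exons of PHYKPL on the other strand. It was at 125, 135 and 118 CPM in wild-type cells and at 222, 227 and 196 CPM in ΔLEO1 cells in 10% serum. These levels differed by 0.77 ± 0.19 on the log2 scale (adjusted p 0.000428). In 0.1% serum it was at 143, 163 and 120 CPM in wild-type and 268, 282 and 163 CPM in ΔLEO1 cells, 0.74 ± 0.19 (adjusted p 0.000843). All 3 ΔLEO1 libraries lay above all 3 wild-type libraries at either serum level, library 12 by less than 1 CPM in 0.1% serum. Its promoter window, printed above, holds the TATA box, the CCAAT boxes and the GC boxes.

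Among the SR genes, SRSF5 (chr14:69726900-69772005) was higher in ΔLEO1 cells in 10% serum by 0.62 ± 0.13 (adjusted p 2.58e-05), with the values given above, and by 0.36 ± 0.13 (adjusted p 0.0247) in 0.1% serum. SRSF7, an SR protein with a zinc knuckle, was at 57.5, 59.0 and 65.2 CPM in wild-type and 93.2, 102 and 95.2 CPM in ΔLEO1 cells in 10% serum, a difference of 0.67 ± 0.22 (adjusted p 0.00657). In 0.1% serum its libraries spread from 63.2 to 104 CPM in wild-type and from 67.7 to 123 CPM in ΔLEO1 cells, so that the groups overlapped. SRSF1, the founding member of the family, rose by 0.40 ± 0.11 (adjusted p 0.00076) in 10% serum, and 50% of its 58-base stretches are shared with an overlapping annotated gene. SRSF4 rose by 0.39 and SRSF10, a factor active in heat shock, by 0.33 (adjusted p 0.00183 and 0.0198). SRSF8 and SRSF9 had estimates of −0.05 and 0.08.

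HNRNPH3, which binds runs of G, was at 88.6, 95.1 and 83.3 CPM in wild-type and 139, 143 and 126 CPM in ΔLEO1 cells in 10% serum, 0.61 ± 0.11 (adjusted p 3.11e-07). In 0.1% serum the 3 libraries lay between 112 and 121 CPM against 136, 152 and 138 CPM, 0.29 ± 0.11 (adjusted p 0.03). Its exons overlap RUFY2 on the other strand, and the strand setting of the counting is not given in the sources used here. HNRNPC, the nuclear core hnRNP, was at 306, 314 and 287 CPM against 450, 447 and 318 CPM in 10% serum, 0.42 ± 0.15 (adjusted p 0.0185). HNRNPA2B1 and HNRNPU, the scaffold attachment factor, rose by 0.31 and 0.30 (adjusted p 0.0171 and 0.0182). HNRNPU was also higher in 0.1% serum, by 0.29 (adjusted p 0.026).

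**Figure D3:**
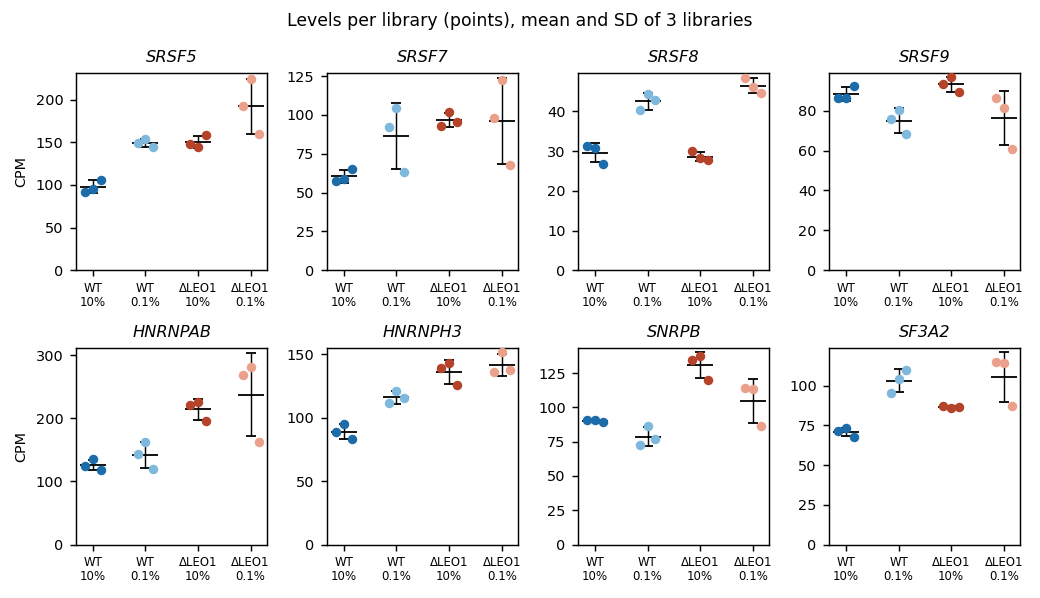
CPM of 8 members in the 12 libraries (points), with the mean (dash) and SD (bars) of the 3 libraries of each group, on axes that start at 0. SRSF5, HNRNPAB, HNRNPH3 and SNRPB are higher in ΔLEO1 than in wild-type cells in 10% serum, and SRSF8 and SF3A2 are higher in 0.1% serum in wild-type cells. SRSF9 stays between 60.7 and 96.8 CPM in all libraries.

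Of the Sm proteins, SNRPB (chr20:2461634-2470853) was at 90.6, 90.6 and 89.3 CPM in wild-type and 135, 137 and 120 CPM in ΔLEO1 cells in 10% serum, 0.54 ± 0.13 (adjusted p 0.000329). In 0.1% serum it was at 72.4, 86.1 and 77.0 CPM against 114, 113 and 86.1 CPM, 0.41 ± 0.13 (adjusted p 0.00885), where library 12 of the ΔLEO1 cells lay at the value of library 8, the highest of the wild type. SNRPD1 and SNRPF rose by 0.54 ± 0.15 and 0.51 ± 0.16 in 10% serum (adjusted p 0.00156 and 0.00428). The Sm genes SNRPD3 at −0.05, SNRPE at 0.03, SNRPG at 0.22 and SNRPD2 at 0.30 were not called. The U2 gene SNRPB2 was at 41.5, 40.2 and 48.4 CPM against 64.6, 65.7 and 63.7 CPM, 0.58 ± 0.16 (adjusted p 0.00124). The U1 genes SNRPA and SNRPC rose by 0.43 and 0.35 (adjusted p 0.0177 and 0.0103).

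In the branch site complexes, SF3A3 was at 76.4, 72.7 and 73.9 CPM in wild-type and 102, 102 and 95.7 CPM in ΔLEO1 cells in 10% serum, 0.43 ± 0.11 (adjusted p 0.000391), and rose by 0.28 ± 0.11 (adjusted p 0.0305) in 0.1% serum. SF3B6, which contacts the branch adenosine, and SF3A1 rose by 0.32 and 0.29 in 10% serum (adjusted p 0.0294 and 0.0151). SF3B1, the largest subunit and one often mutated in myelodysplasia, was at 0.23 in 10% serum and at −0.05 in 0.1% serum, and SF3B5 at 0.11 and −0.08, none called. SF3B3 had negative estimates at both serum levels, −0.17 and −0.21.

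In 10% serum HNRNPAB, SRSF7, SRSF5, HNRNPH3, SNRPB2, SNRPB, SNRPD1, SNRPF, SF3A3, SRSF1 and SRSF4 passed in each of the 12 fits that left out 1 library. The other 8 lost their call in some. SNRPA lost it without library 1, 3, 4 or 5, HNRNPC without 1, 3, 4 or 5, HNRNPA2B1 without 3, 4 or 5, HNRNPU without 1, 2, 3, 4 or 5, SF3A1 without 1, 4 or 5, SF3B6 without 1, 2, 4 or 5, SNRPC without 1, 2 or 5, and SRSF10 without 1, 2, 5 or 6, with adjusted p from 0.0517 to 0.137. The number called was 11 without library 5, 12 without library 1 and 29 without library 12. In 0.1% serum HNRNPAB alone of the 6 passed in all 12 fits. SNRPB lost its call without library 7, 10 or 11 (0.0677 to 0.0724), SRSF5 without 7, 8, 9, 10 or 11 (0.0588 to 0.197), HNRNPU without 7, 8, 9, 10 or 11 (0.064 to 0.133), HNRNPH3 without 4, 7, 8, 9 or 11 (0.0502 to 0.154) and SF3A3 without 2, 4, 7, 8, 9, 10 or 11 (0.05 to 0.173). The number was 1 without library 11, 2 without library 7 or 8, 3 without library 9 or 10 and 13 without library 12. At either serum level, shares of all genes called are not given for single removals, so these counts alone do not set the members apart. Without the 4 highest-numbered libraries the calls were 39 higher and 3 lower in 10% serum and 25 higher and 2 lower in 0.1% serum, where 31% and 31.2% of all genes were called higher and 32.5% and 29.7% lower.

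**Figure D4:**
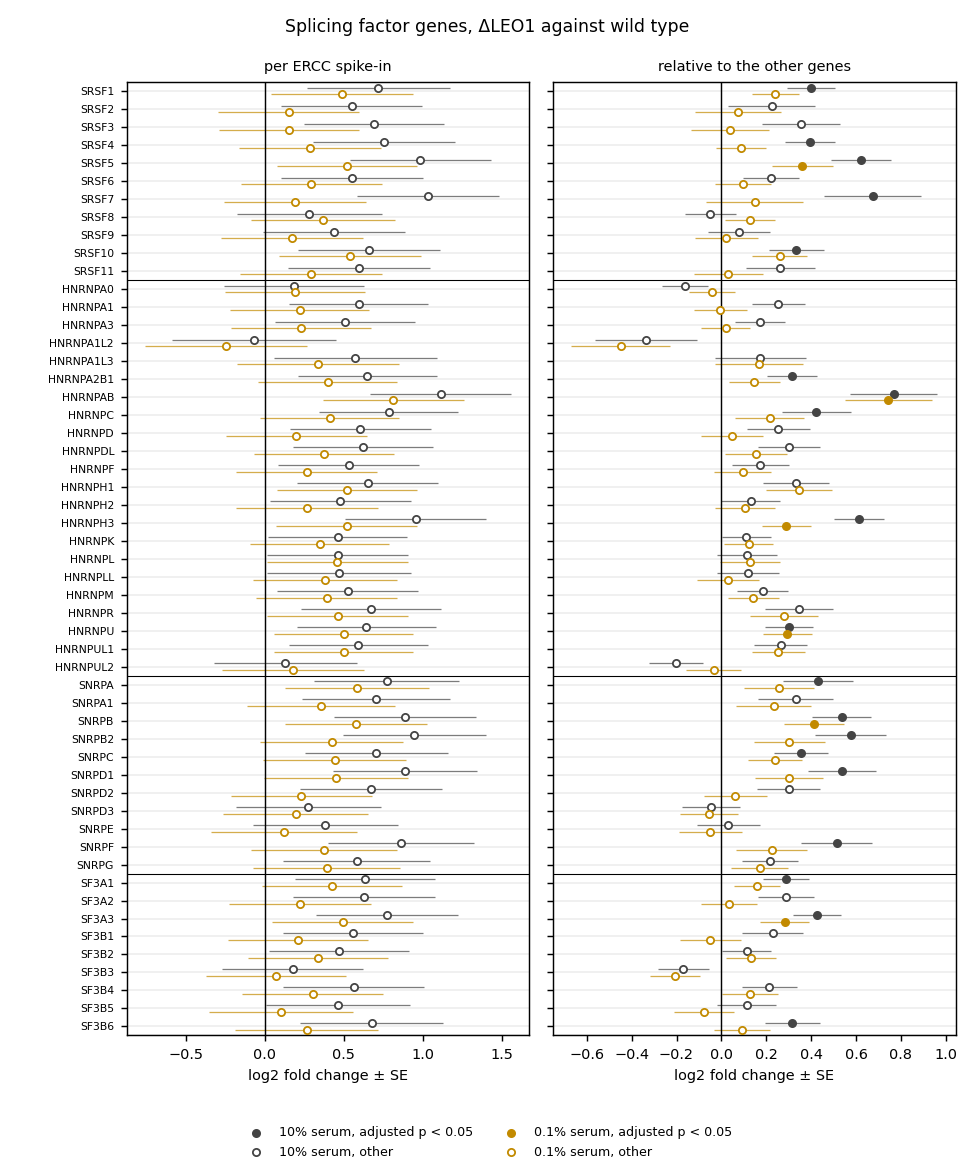
Log2 fold change of each tested member, ΔLEO1 against wild-type cells, with its SE, in 10% serum (dark grey) and 0.1% serum (ochre). Filled points passed an adjusted p of 0.05. Relative to the other genes (right) all filled points lie above 0, and HNRNPAB has similar values at both serum levels. Per ERCC spike-in (left) the error bars are wide and 0 members were called.

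Per ERCC spike-in edgeR called 0 members in either comparison of genotypes, with 6 members in 10% serum and 0 in 0.1% serum at an unadjusted p under 0.05. The share of all genes at that unadjusted level is not given, so the 6 do not set the members apart. Of all genes 4.2% were called higher and 4.64% lower in 10% serum, and 3.85% and 3.59% in 0.1% serum. The quasi-likelihood test and DESeq2 called 0 members as well. Groups did not overlap for 20 members in 10% serum and for 0 in 0.1% serum, against 30.6% and 9.47% of all genes. The median member was at 0.61 in 10% serum and at 0.35 in 0.1% serum, against 0.35 and 0.27 for all genes. At each serum level 52 of 53 members had positive estimates, with HNRNPA1L2 the exception. Of all 13236 tested genes 9810 had positive estimates in 10% serum and 9741 in 0.1% serum. In 0.1% serum the direction rested on library 12, without which the median member was at −0.11 and the median gene at −0.27. The median member was at 0.16 without library 9, at 0.63 without library 11 and, with the median gene at −0.42, at −0.29 without the 4 highest-numbered libraries. In 10% serum the median member was then at 0.52, with 2 members called higher. The median and the share called of all genes in that fit are not given for 10% serum, so these values do not set the members apart.

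On the gene scale the 12 proliferation genes all had positive estimates in ΔLEO1 cells in 10% serum (median 0.31, 0 called). In low serum all 12 were negative (median −0.66 in wild-type and −0.64 in ΔLEO1 cells). There 2 were called lower in each genotype, against 16.6% and 12.9% of all genes. Per ERCC spike-in all 12 were called lower in both genotypes, with medians of −1.865 and −1.662, against 36.1% and 47.2% of all genes. The summed level of the 12 genes was 297 to 975 CPM in wild-type and 624 to 1166 CPM in ΔLEO1 libraries in 10% serum. In 0.1% serum it was 357 to 636 CPM and 547 to 738 CPM. The part of these proliferation genes in the differences of the splicing factor genes was not tested.

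The third question was whether low serum acts differently in the 2 genotypes. On the gene scale the interaction was called for 0 of 53 members by edgeR's likelihood ratio test, against 1.02% of all genes called lower and 3.07% called higher, and the quasi-likelihood test and DESeq2 also called 0. At an unadjusted p under 0.05, for which the share of all genes is not given, there was 1 member, HNRNPH3 at −0.32 ± 0.16 (adjusted p 0.329). It was named after its value was seen, as was SRSF7, whose estimate of −0.53 was the most negative and had an SE of 0.31. The interaction was negative for 46 of 53 members and for 6282 of 13236 genes, with medians of −0.12 and 0.02. Without the 4 highest-numbered libraries 6 members were called lower. The share of all genes called in that fit is not given, so this count does not set the members apart. Per spike-in 0 members were called and 0 had an unadjusted p under 0.05, against 0.0831% of all genes called lower and 0.136% called higher, with a median of −0.26 against −0.07.

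Other genes of the splicing machinery were described by lists that hold none of the members. Of all genes 17.7% were called higher and 21.8% lower in ΔLEO1 cells in 10% serum, and 15.4% and 17.6% in 0.1% serum. In 10% serum on the gene scale, 15 of 28 genes of the catalytic spliceosome and exon junction complex were higher in ΔLEO1 cells and 0 lower, with EIF4A3, the helicase of the exon junction complex, at 0.55 ± 0.14 (adjusted p 0.000527). Other proteins of the small nuclear ribonucleoproteins gave 12 higher and 1 lower of 41, with PRPF3 of the U4/U6 particle at 0.58 and LSM6 at −0.39. Factors of their assembly gave 5 higher and 2 lower of 17, with DDX20 (GEMIN3) at 0.79 and GEMIN6 at −0.46. Regulators of SR proteins gave 4 higher and 0 lower of 16, led by TRA2A at 0.62, and other splicing regulators 10 higher and 1 lower of 39, with PTBP3 at 0.78 and QKI at −0.31. In 0.1% serum these lists, in the same order, gave 4, 2, 3, 2 and 8 higher and 0, 2, 2, 0 and 0 lower. Among the lower ones were again LSM6 at −0.58 (adjusted p 0.000818) and GEMIN6 at −0.75 (adjusted p 0.000296), by edgeR's likelihood ratio test. In 10% serum the lower calls of LSM6, GEMIN6 and QKI were lost without single libraries. This was so for LSM6 without 1, 3, 5 or 6 (adjusted p 0.0713 to 0.155) and for GEMIN6 without 1, 2, 4 or 6 (0.0758 to 0.156). For QKI it was so without any one of 1 to 6, 8, 10 and 11 (0.0603 to 0.176). The lower call of GEMIN8, at −0.43 (adjusted p 0.00766, edgeR's likelihood ratio test), was not followed in those fits.

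In wild-type cells in low serum the same lists gave, on the gene scale, 8 higher and 0 lower of 28, 6 higher and 3 lower of 41, 1 higher and 1 lower of 17, 2 higher and 3 lower of 16, and 5 higher and 2 lower of 39, against 16% higher and 16.6% lower of all genes. SRPK1, the kinase that phosphorylates SR proteins, fell by 0.63 ± 0.12 (adjusted p 1.93e-06), from 50.9 to 57.4 CPM in 10% serum to 32.3 to 37.2 CPM in 0.1% serum. CLK4, another kinase of SR proteins, rose by 0.73 ± 0.25 (adjusted p 0.0132, and 0.0513 without library 2). The muscleblind gene MBNL2 fell by 0.82 and MBNL3 rose by 1.27. In ΔLEO1 cells the counts were 2 higher and 1 lower, 2 and 4, 0 and 2, 0 and 3, and 5 and 2, against 16.5% and 12.9% of all genes.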

How the data were processed

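RNA-seq counts of 12 libraries were analysed. Per the labels and the methods of the study, the authors prepared stranded poly(A) libraries with ERCC transcripts added, sequenced 58-base paired reads, aligned them with STAR (2.7.10a in the submitters' processing notes) to GRCh38 and counted them with featureCounts 1.5.1; they deposited raw counts per gene and per ERCC transcript. The annotation release and strand setting are not given in the sources used here. Reads of near-identical copies could be split or lost in counting, so shared 58-base stretches were computed from GENCODE 29 transcripts.

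Genes over 1 CPM in 3 or more libraries were kept and fitted in edgeR 4.0.16 (R 4.3.3) with 4 groups and two-sided likelihood ratio tests on 2 scales, ERCC total with TMM factor on the ERCC transcripts and gene total with TMM factor on the genes. CPM in the text use the latter, and their means and SD rest on 3 libraries per group. The SE of a log2 fold change was computed from the fitted values of the groups compared, 3 libraries each, with the spread estimated over all 12 libraries. The methods name edgeR but no test. Alternatives were the quasi-likelihood test, DESeq2 1.42.0, other scaling factors, no filter, fits to the groups compared, libraries left out and, chosen after seeing the data, a term for libraries 3, 6, 9 and 12. The code was tested on simulated counts. Biotypes and positions came from GENCODE, and promoter windows from RefSeq.

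Named by rule were, per comparison and scale, the 5 called members with the largest change in each direction and no overlap between groups, the member of each family with the highest CPM per kb, LEO1, and per list the called gene with the largest change in each direction. Other members, and GEMIN8 of the lists, were named after their values were seen. The members and lists were chosen with earlier results of these data known. Genes whose symbol starts with a prefix but which are pseudogenes or other non-coding genes (201) and 1 read-through gene were left out.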

Additional observations from a re-analysis of the deposited data

Results flagged for a closer look

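The interaction of genotype and serum was called for KHDRBS3 (SLM2), an RNA-binding regulator of splicing of the STAR family, on the gene scale (0.81 ± 0.21, adjusted p 0.00504, edgeR's likelihood ratio test). Among the 39 other splicing regulators tested it was the 1 gene called (2.56%), against 3.07% of all genes called higher. KHDRBS3 was at 18.8, 21.1 and 23.5 CPM in wild-type and 22.3, 22.0 and 18.1 CPM in ΔLEO1 cells in 10% serum. In 0.1% serum it was at 16.7, 17.0 and 20.5 CPM in wild-type and 28.9, 30.8 and 33.6 CPM in ΔLEO1 cells. The groups overlapped in 10% serum only. The estimate was 0.72 to 0.91 when 1 library was left out, with adjusted p of at most 0.038, and 0.68 without libraries 3, 6, 9 and 12.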

How the results depend on the processing

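No paired analysis was possible because the replicate numbers run from 1 to 12 and no number is shared between groups. Counts below are of members called in 0.1% against 10% serum (wild type, ΔLEO1) or in ΔLEO1 against wild type (10%, 0.1% serum). In this paragraph, shares of all genes stand beside the counts only for the fit with an added term. The other counts alone do not set the members apart. Per spike-in, 5 lower in wild type became 1 with the quasi-likelihood test, 12 with DESeq2, 0 with no filter, 36 with a fit to the groups compared and 35 without libraries 3, 6, 9 and 12. The 33 lower in ΔLEO1 became 16 with no filter, 3 with a fit to the groups compared and 53 without the 4 libraries (22 with the quasi-likelihood test), and 0 higher in ΔLEO1 in 10% serum became 4 with a fit to the groups compared and 2 without the 4 libraries. On the gene scale, 0 lower in ΔLEO1 in low serum became 1 with the quasi-likelihood test and 2 with DESeq2, and 5 higher became 2 with no filter and 2 with a fit to the groups compared. For the genotypes in 0.1% serum, 6 higher and 0 lower became 2 and 1 with no filter, and 1 higher with a fit to the groups compared. Without the 4 libraries the gene scale gave 28 higher and 3 lower (wild type), 16 and 7 (ΔLEO1), 39 and 3 (10% serum), 25 and 2 (0.1% serum), and 6 lower for the interaction. With a term for libraries 3, 6, 9 and 12 added to the model, a fit chosen after seeing the data, 3 members (29.4% of all genes) were lower in wild type and 17 (32.2%) in ΔLEO1 per spike-in, and on the gene scale 3 were lower in ΔLEO1 in low serum (15.2%) and 10 higher in 0.1% serum (17.8%). The causes of these moves were not tested. By design, a fit to the groups compared uses fewer libraries with their own filter and scaling factors, and no filter adjusts over more genes.

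With 1 library left out, calls per spike-in ranged from 0 to 35 lower in wild type, 0 to 52 lower in ΔLEO1 and 0 to 3 higher in ΔLEO1 in 10% serum. On the gene scale they ranged from 6 to 14 higher in wild type and from 2 to 9 higher and 0 to 2 lower in ΔLEO1. Between genotypes the ranges were 11 to 29 higher in 10% serum and 1 to 13 higher in 0.1% serum. Shares of all genes called in these gene-scale fits are not given. Calls on the ERCC scale kept in all 12 such fits numbered 0 of 5 and 0 of 33. Every member called on the gene scale was also called by the quasi-likelihood test, by DESeq2 and without the 4 libraries.

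The alternatives were followed for the called members, LEO1, the listed genes named by rule and the member of each family with the highest CPM per kb. They were not followed for other members named with a value near 0. Of the genes followed, HNRNPK, SF3B5 and SRSF2, none called in these comparisons, turned in direction. Without the 4 libraries the genotype estimates in 0.1% serum per spike-in were −0.30 for HNRNPK, −0.38 for SF3B5 and −0.39 for SRSF2, with ranges of −0.12 to 0.65, −0.22 to 0.40 and −0.13 to 0.48 when 1 library was left out. On the gene scale SRSF2 in wild type was at 0.031 without the 4 (range −0.19 to 0.090), SF3B5 in 0.1% serum at 0.047 (−0.19 to 0.046) and the interaction of HNRNPK at −0.016 (−0.049 to 0.060). The ranges were −0.018 to 0.21 for SF3B5 in ΔLEO1 in low serum, −0.094 to 0.25 for SRSF2 in 0.1% serum, −0.32 to 0.026 for the interaction of SRSF2, and, per spike-in, −0.58 to 0.19 for the interaction of HNRNPK. In the single comparisons the lowest SE of a member was 0.439 log2 units per spike-in and 0.102 on the gene scale, so smaller differences could be called only on the latter.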

Other observations

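Pseudogenes and other non-coding genes with the prefixes of the 4 families numbered 201 in the count table. Of these, 110 had at least 1 count and 3 passed the filter, the processed pseudogenes HNRNPCP2, HNRNPA1P7 and HNRNPKP4, with 2023, 559 and 381 counts over the 12 libraries. Together the 201 took 0.132% to 0.165% of the counts of members and these genes in a library.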
